A study of Homo sapiens with 4 samples.

Results

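The RAS subfamily GTPases RRAS, RRAS2, HRAS, NRAS, RAP1A, RAP1B, RAP2B, RALA and RALB were followed in U937 cells, a human myelomonocytic line derived from a histiocytic lymphoma, after knock-down of PIR. The members were every probe set of the array whose platform annotation names 1 of these 9 genes and no other gene. This gave 18 probe sets of 54613, for 8 genes of 19775. NRAS had no such probe set in the annotation used here and was not analysed, and 1 further probe set that is annotated to RAP2B together with RAP2A was not counted. The genes were put together with results of these same arrays known, RRAS being among the genes that differed most, so the values below describe the members and support no test of the condition.

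The knock-down cells carried the shPIR#7 hairpin in the lentiviral vector pSICO-R, and the control cells carried the same vector without a hairpin. Pirin, the product of PIR, is a nuclear protein that binds iron. The knock-down rests on 1 hairpin sequence, and the control is an empty vector and not another hairpin. Both lines were kept in the same medium, and the design text reports that no pirin protein was left on a Western blot. For each condition, RNA from 3 extractions was mixed into 1 pool and hybridised to 2 HG-U133 Plus 2.0 arrays, so each condition is 1 sample, errors are SDs between 2 arrays of the same RNA, and a difference between the pools has no replicate check. The hairpin is shown because it defines the comparison; the forward oligonucleotide has 55 bases, and the capitals mark its inverted repeat of 20 bases, which forms the stem.
shPIR#7: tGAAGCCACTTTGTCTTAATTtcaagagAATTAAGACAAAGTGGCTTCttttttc

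RAS subfamily proteins are small GTPases that are active when bound to GTP and silent when bound to GDP. Exchange factors load them with GTP, GTPase-activating proteins switch them off, and lipid anchors at the C-terminus hold most of them on membranes. HRAS and NRAS carry signals from growth factor receptors to the RAF and PI3 kinases, RRAS and the RAP1 proteins are known for the control of integrin adhesion, and the RAL proteins act on the exocyst, which tethers secretory vesicles. In monocytes and macrophages RAP1 is best known for the activation of leukocyte integrins.

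The brightness limit was the 60th percentile of signal on each array, which lay between 116.4 and 125.5, and a probe set was measured if 1 pool or both had reached it on each of its arrays. The size rule asked that the pools differ 2-fold or more on the log2(signal + 18) scale, that each of the 4 pairs of a knock-down and an empty-vector array differ that way by 0.5 or more, and that the higher pool reach the brightness limit on its 2 arrays. Of 21933 measured probe sets, 2.29% were past this rule as higher and 1.45% as lower in the knock-down pool, which is 502 and 318 probe sets; after scaling the arrays to a common median they were 695 and 213. PIR itself had signals of 83.4 and 91.5 on the knock-down arrays, against 1812.9 and 1881.7 on the empty-vector arrays. Of 10 monocytic marker genes with a probe set, 8 were measured. The signals of all 10 summed to 45120 and 51156 on the knock-down arrays, against 44127 and 45517 on the empty-vector arrays. Of the markers fixed for T cells, epithelial cells, erythroid cells and megakaryocytes none was measured, CD22 and CD79A were measured among the B cell markers, and COL1A1 among the fibroblast markers. The ratio of 3' to 5' signal lay between 0.959 and 1.02 for GAPDH and between 1.17 and 1.18 for ACTB on the 4 arrays, so this measure of RNA quality differed little between the pools.

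RRAS was the only member past the size rule. Of the 18 member probe sets, 12 were measured, 1 was past the size rule as higher and 0 as lower. The higher one was RRAS, and since RRAS was chosen from this contrast the share of 2.29% among all measured probe sets is given only as a scale. The other 11 measured probe sets, of HRAS, RAP1A, RAP1B, RAP2B, RALA and RALB, had log2 differences between -0.79 and 0.39. Their direction was mixed. Over the 12 measured probe sets the median log2 difference was -0.06, and it was 0.02 over all measured probe sets.

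**Figure D1:**
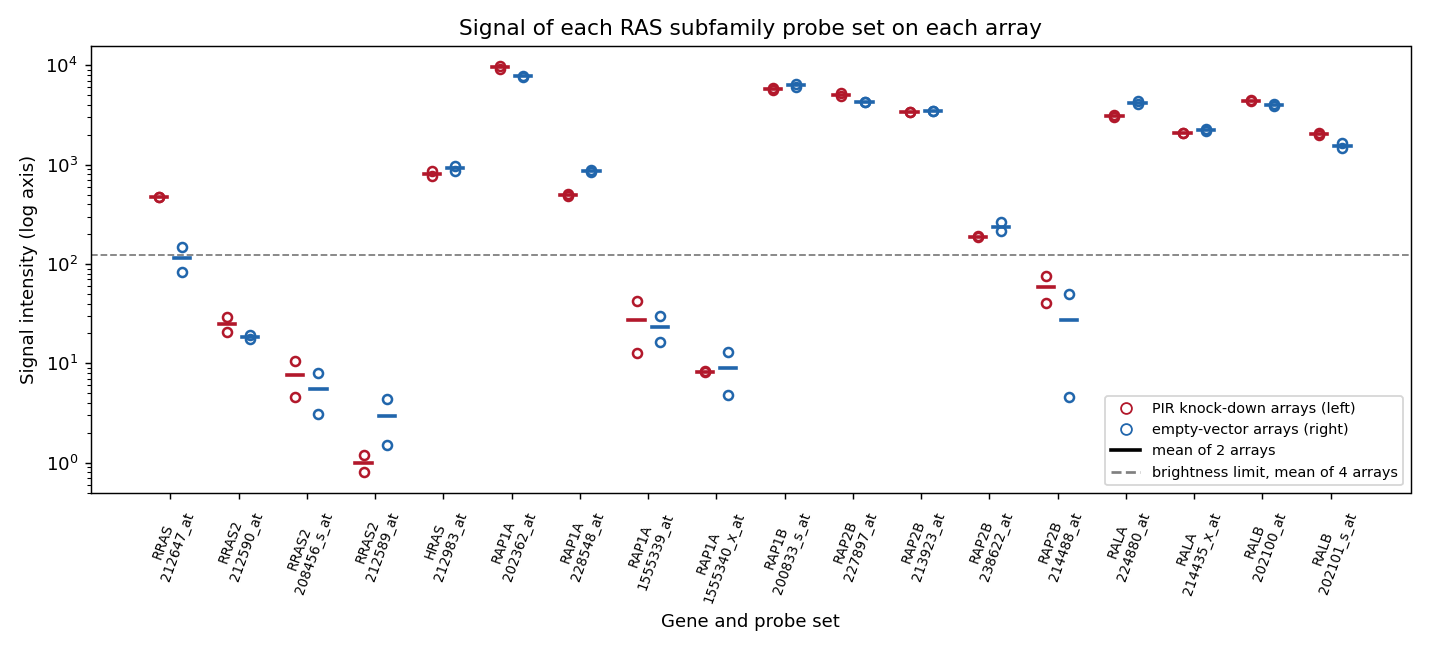
Signal intensity (log axis) of each of the 18 member probe sets on each array, with knock-down arrays on the left and empty-vector arrays on the right of each pair; circles are arrays and bars are means of 2 arrays. RRAS lies at 476 and 472 on the knock-down arrays and on both sides of the brightness limit (dashed) on the empty-vector arrays, and the RRAS2 probe sets lie below the limit on all 4 arrays.

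RRAS, a GTPase that promotes integrin activation, is reported by the probe set 212647_at. Its signal was 476 and 472 on the knock-down arrays, against 83 and 147 on the empty-vector arrays. Both knock-down arrays were well above both empty-vector arrays, and the empty-vector arrays lay on both sides of the brightness limit of 125.5. The means were 474 ± 2.83 in the knock-down pool, against 115 ± 45.3 in the empty-vector pool (SD, n = 2 arrays each). The log2 difference was 1.93, or 3.81-fold, with 1.57 to 2.29 over the 4 array pairs. Nearly all of that spread came from the empty-vector arrays, whose SD was 0.50 on the log2 scale. Over all measured probe sets the SD between the empty-vector arrays had a median of 0.07 and a 90th percentile of 0.25. The log2 difference was 1.58 without empty-vector replica 1, the dimmer control array, and 2.28 without replica 2. In RNA of whole cultures, more RRAS per cell and more cells with RRAS cannot be told apart. The fold depends on the settings, since the control signal was not above the brightness limit on both arrays. Genes with a difference near that of RRAS were sought among measured genes on their brightest probe set, leaving out identifiers that end in _x_at. The nearest 3 were HHLA1 with 1.91, KIF26B with 1.95 and ITGAM, the CD11b integrin chain, with 1.90. In HHLA1 and KIF26B, as in RRAS, the empty-vector pool did not reach the brightness limit on both arrays, and in ITGAM both pools did. The SD between the empty-vector arrays was 0.64 for HHLA1, 1.05 for KIF26B and 0.13 for ITGAM on the log2 scale.

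RRAS2, known as TC21 and the closest relative of RRAS, was not measured on any of its 3 probe sets. The brightest of them, 212590_at, had signals of 20.7 and 29.4 on the knock-down arrays, against 17.7 and 19.4 on the empty-vector arrays. The probe set 208456_s_at had 10.6 and 4.6, against 3.1 and 8.0. The probe set 212589_at stayed between 0.8 and 1.2 on the knock-down arrays and between 1.5 and 4.4 on the empty-vector arrays. All of these values were below the brightness limit, so the arrays give no usable difference for RRAS2.

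HRAS, the classical RAS protein measured here, has the single probe set 212983_at. Its signal was 867.4 and 760.7 on the knock-down arrays, against 975.5 and 872.6 on the empty-vector arrays. The groups did not overlap, but the brighter knock-down array and the dimmer empty-vector array were close together. The log2 difference was -0.18, with array-by-array differences from -0.35 to -0.01, and HRAS was not past the size rule.

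**Figure D2:**
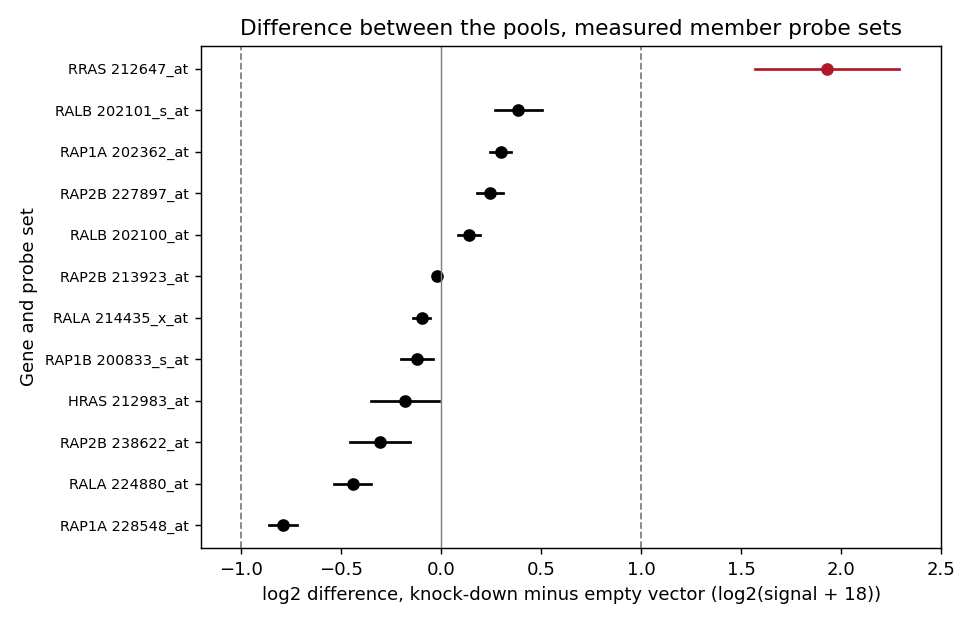
Log2 difference of the 12 measured member probe sets, knock-down minus empty vector, on the log2(signal + 18) scale; points are differences of pool means, lines the range of the 4 array-by-array differences, and dashed lines the 2-fold limit. RRAS at 1.93 is the only point beyond the limit, and RAP1A appears both at 0.30 and at -0.79.

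The RAP1 proteins drive integrin activation and cell spreading. RAP1A had 2 measured probe sets that differed in opposite directions. On 202362_at its signal was 9778.3 and 9267 on the knock-down arrays, against 7809 and 7675.9 on the empty-vector arrays. On 228548_at it was 500.8 and 480.8 on the knock-down arrays, against 837.2 and 889.1 on the empty-vector arrays. The knock-down arrays were thus all above the control arrays on the first probe set and all below them on the second. The log2 differences were 0.30, with array-by-array values from 0.25 to 0.35, and -0.79, with values from -0.86 to -0.72. The second is the largest negative difference among the members and a 1.73-fold lower signal in the knock-down pool. The annotation lists a RefSeq mRNA accession for the first probe set but not for the second. No such accession was listed for RALA 224880_at, RALB 202100_at or any measured RAP2B probe set either. Which transcripts the probes of these sets match was not examined. The other RAP1A probe sets, 1555339_at and 1555340_x_at, had signals between 8.2 and 42 on the knock-down arrays and between 4.8 and 29.7 on the empty-vector arrays, all below the brightness limit.

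RAP1B, the close paralogue of RAP1A, was measured on 200833_s_at with 5908.3 and 5629.2 on the knock-down arrays, against 6462.6 and 6069.9 on the empty-vector arrays. Its log2 difference was -0.12, with array-by-array values from -0.20 to -0.04, so the knock-down arrays were lower by a small amount; after scaling the arrays to a common median, which moved the median of all measured probe sets by 0.12, the difference was 0.01. The suffix of this identifier marks probes that several transcripts can share.

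RAP2B, a RAP protein whose relatives act on the cytoskeleton through the kinases TNIK and MINK1, had 3 measured probe sets. On 227897_at the signal was 5249.5 and 4883.8 on the knock-down arrays, against 4236.1 and 4308.4 on the empty-vector arrays, a log2 difference of 0.24. On 213923_at it was 3405.5 and 3420.2, against 3466.3 and 3458.6 on the empty-vector arrays, a log2 difference of -0.02, or 0.11 after scaling to a common median. On 238622_at it was 189.7 and 186, against 213.3 and 261.7 on the empty-vector arrays, a log2 difference of -0.31. RAP2B therefore had no single direction. Its remaining probe set, 214488_at, was below the brightness limit, with 75.8 and 40.8 on the knock-down arrays, against 50.4 and 4.6 on the empty-vector arrays.

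The measured probe sets of 1 gene went opposite ways, with all knock-down arrays above the control arrays on 1 probe set and all below on another, in RAP1A and RAP2B of the 4 member genes with several measured probe sets. Over all 5117 such genes on the array this share was 18.8%. The range over the measured probe sets was 1.09 for RAP1A, 0.55 for RAP2B, 0.35 for RALA and 0.25 for RALB on the log2 scale. A range of at least 1, as in RAP1A, was found in 5.51% of the 5117 genes.

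RALA and RALB, close paralogues that bind the exocyst subunits EXOC2 and EXOC8, lay on opposite sides of 0. RALA had signals of 3184.4 and 2995.2 on the knock-down arrays on 224880_at, against 4059.3 and 4357.3 on the empty-vector arrays. The log2 difference was -0.44, with array-by-array values from -0.54 to -0.35. Its probe set 214435_x_at, whose suffix marks probes shared with related transcripts, had 2058.1 and 2104.1, against 2185.1 and 2272.2, and a log2 difference of -0.10. Both RALA probe sets were thus lower on the knock-down arrays, by a larger amount on the first, and the second turned to 0.03 after scaling to a common median. RALB had 4326.9 and 4440.2 on the knock-down arrays on 202100_at, against 4075.1 and 3882.6 on the empty-vector arrays, a log2 difference of 0.14. On 202101_s_at it had 1987.5 and 2071.1, against 1456.4 and 1645.4, a log2 difference of 0.39 with array-by-array values from 0.27 to 0.50. The suffix of 202101_s_at also marks probes that several transcripts can share. Both RALB probe sets were higher on the knock-down arrays without overlap, and neither gene was past the size rule.

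The promoters of RALA and RALB are shown because this pair of paralogues had differences of opposite sign. They are RefSeq sequences of GRCh38.p14, from 250 bases before to 50 bases after the annotated start, for RALA at chr7:39623322-39623621 and for RALB at chr2:120252602-120252901, both on the plus strand. Capitals mark GC boxes, written GGGCGG or CCGCCC on the strand shown.
RALA: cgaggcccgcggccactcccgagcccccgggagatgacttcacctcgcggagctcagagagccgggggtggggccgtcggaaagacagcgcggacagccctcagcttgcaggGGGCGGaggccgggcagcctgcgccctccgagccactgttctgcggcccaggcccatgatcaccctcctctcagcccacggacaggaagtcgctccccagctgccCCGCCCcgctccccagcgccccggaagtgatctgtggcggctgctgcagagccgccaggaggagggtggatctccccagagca
RALB: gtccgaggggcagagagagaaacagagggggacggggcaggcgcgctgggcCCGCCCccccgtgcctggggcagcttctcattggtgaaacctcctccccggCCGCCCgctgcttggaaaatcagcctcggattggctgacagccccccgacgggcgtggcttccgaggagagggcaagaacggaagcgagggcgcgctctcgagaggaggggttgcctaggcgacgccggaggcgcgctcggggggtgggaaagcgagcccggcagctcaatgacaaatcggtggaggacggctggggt
Each of the 2 promoters held 2 GC boxes, and their GC content was 72.3% for RALA and 69.7% for RALB. Of 35116 promoters of the same length, 45.0% held at least 1 GC box and 26.7% at least 2. The median GC content of these promoters was 58.7%. Whether these motifs bear on the differences of the paralogues was not tested.

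Setting the members against the whole array, 5 of the 12 measured probe sets had both knock-down arrays above both empty-vector arrays, and 7 had both below. These counts are in the authors' scaling, and such separation was common: 37.4% of all measured probe sets were above and 33.3% below on all arrays. With 2 arrays of each pool, separation of the groups therefore marked small differences as well as large ones.

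**Figure D3:**
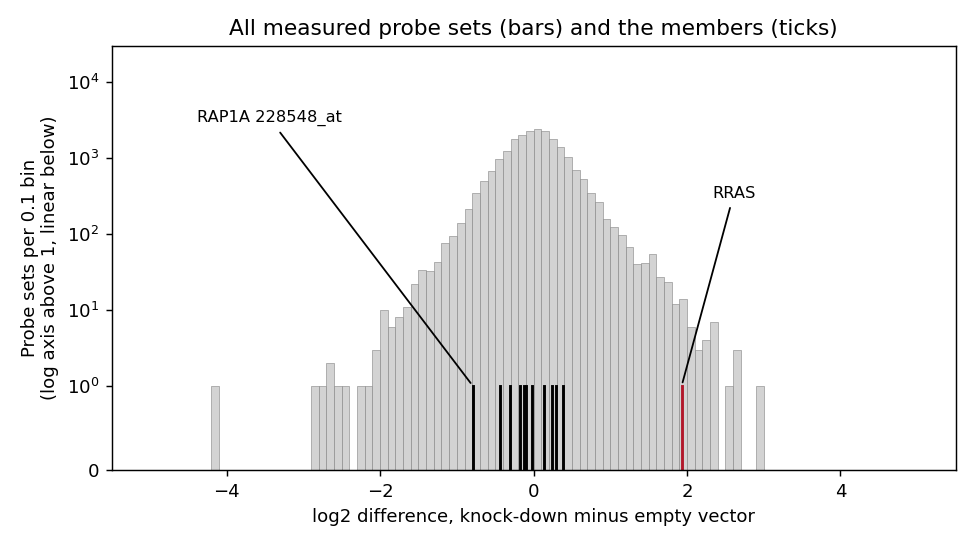
Number of measured probe sets per bin of 0.1 in log2 difference (bars; the axis is logarithmic above 1) and the 12 measured members (vertical ticks, red for RRAS). RRAS at 1.93 stands in the right tail, and the other 11 members lie between -0.79 and 0.39.

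The regulators and partners of these GTPases were read from 6 lists, each gene on its brightest probe set. Together the lists had 84 measured genes, of which 4 were past the size rule as higher, or 4.76%, and 1 as lower, or 1.19%. Over all 10288 measured genes these shares were 2.44% and 1.1%, and the median log2 difference was 0.05. The lists were chosen with earlier results of these data known, so the shares are a description and support no test.

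The exchange factors, which load the GTPases with GTP, held 3 of these 5 genes. Of 11 measured, 2 were past the rule as higher and 1 as lower, with a median log2 difference of 0.08. RAPGEF2, an exchange factor for RAP1, had signals of 1689.4 and 1611.1 on the knock-down arrays, against 646.9 and 611.8 on the empty-vector arrays. This was a 2.58-fold higher signal, with array-by-array log2 differences from 1.29 to 1.44. The second measured probe set of RAPGEF2, at 0.98, lay just inside the 2-fold limit. The suffix of both RAPGEF2 identifiers marks probes that several transcripts can share. RASGRP4, a RAS exchange factor of myeloid cells and mast cells that responds to diacylglycerol, had 385.1 and 332.7 on the knock-down arrays, against 141.8 and 192.5 on the empty-vector arrays. Its log2 difference was 1.04, and it came to 0.94 if knock-down replica 1 was left out and to 0.84 if empty-vector replica 1 was left out, both under the limit. RGL4, which resembles the RAL exchange factor RALGDS, was lower, with 217.4 and 301.1 on the knock-down arrays, against 578.5 and 573.2 on the empty-vector arrays. Its log2 difference was -1.12, on a probe set whose suffix marks shared probes. Without knock-down replica 1 it was -0.90, under the limit.

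The effectors, proteins that bind the GTP-bound form, had 23 measured genes, of which 2 were past the rule as higher and 0 as lower, with a median of 0.23. TIAM1, a RAC exchange factor that binds RAS, had signals of 2031 and 1715.2 on the knock-down arrays, against 833.8 and 831.6 on the empty-vector arrays. It was 2.22-fold higher. Its other probe set had 250.9 and 278.5, against 94.7 and 108.6 on the empty-vector arrays, and counts as measured through the knock-down pool alone, since both control signals lay below the brightness limit. MINK1, a kinase bound by RAP2, had 899 and 674.8 on the knock-down arrays, against 383.9 and 369.6 on the empty-vector arrays. Its log2 difference was 1.01, on a probe set whose suffix marks shared probes, and it came to 0.81 if knock-down replica 1 was left out and to 0.99 if empty-vector replica 2 was, both under the limit.

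None of the other 4 lists had a gene past the size rule. Other RAS family genes had 8 measured members with a median of 0.13. RIT1, a RAS-like GTPase, had the largest difference there, with 1324.5 and 1316.6 on the knock-down arrays, against 880.8 and 853.5 on the empty-vector arrays (0.60 on the log2 scale). Its 4 other measured probe sets had differences of -0.20, -0.21, -0.14 and 0.23. MRAS, which forms a phosphatase complex with SHOC2, had -0.45 and, on its other probe set, -0.30.

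The GTPase-activating proteins, which switch the GTPases off, had 12 measured genes and a median of 0.20. RASAL2, which acts on RAS, had 0.60 with signals of 377.1 and 351.7 on the knock-down arrays, against 218.8 and 250.9 on the empty-vector arrays, and 0.19 on its other measured probe set. SIPA1L1, which acts on RAP, had 0.53 and 0.52 on its 2 measured probe sets. The second had signals of 224.9 and 193 on the knock-down arrays, against 101.1 and 190.7 on the empty-vector arrays. It counts as measured through the knock-down pool alone, since 1 control signal lay below the brightness limit. Its array-by-array differences ran from 0.02 to 1.03, so it adds little to the first. The enzymes and chaperones of the lipid anchor had 13 measured genes and a median of 0.02. ZDHHC9, a palmitoyltransferase of HRAS, had 0.78 with signals of 1071.6 and 1242.2 on the knock-down arrays, against 653 and 673.6 on the empty-vector arrays. ABHD17C, of a family that removes palmitate, had 0.53.

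The list of MAPK pathway kinases and genes induced by ERK signalling had 17 measured genes and a median of 0.08, with 10 positive and 7 negative differences. IER3, an immediate early gene, had the largest difference of the list, -0.74, with 450.9 and 499.3 on the knock-down arrays, against 845.9 and 760.1 on the empty-vector arrays. SPRED1, an inhibitor of RAS signalling, had -0.43. Genes of this list were thus found on both sides of 0, and all 17 lay inside the 2-fold limit.

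**Figure D4:**
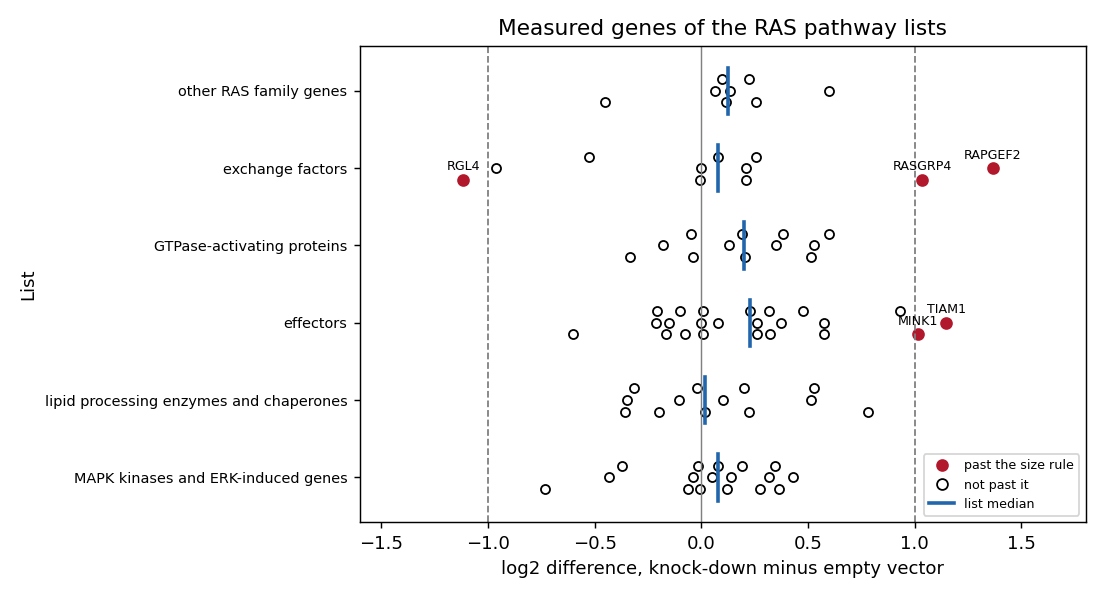
Log2 difference of the 84 measured genes in the 6 lists, knock-down minus empty vector, 1 circle per gene on its brightest probe set; filled circles are past the size rule, blue bars are list medians and dashed lines the 2-fold limit. RAPGEF2, RASGRP4, TIAM1 and MINK1 are higher and RGL4 is lower in the knock-down pool.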

How the data were processed

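The authors used GCOS to make the signals, per the submitters' processing notes, and their deposited table holds 1 linear signal intensity per probe set and array. The 2% trimmed mean was 500.07 on all 4 arrays, which shows a common scaling; scanner files and detection calls were not used here, and the precision is limited by the number of arrays and by the single pool per condition. Of 54675 probe sets, 62 AFFX controls were left out, 41091 of the rest had 1 gene symbol, 1801 several and 11721 none. Symbols were updated through gene identifiers in the reference gene table. Each condition is 1 pool, so no p-value tests the condition; the adjusted p of limma compares the 2 pools against hybridisation error only. The members, lists and rules were chosen with earlier results of these data known. Named were all members, PIR, list genes past the size rule, the 2 largest absolute differences per list, and the 3 genes nearest to RRAS. The size rule and limma were tested on simulated data. Alternatives covered pseudocount, brightness limit, scaling, fold limit, margin, probe set choice, left-out arrays and limma (lmFit and eBayes with trend). The software was limma 3.58.1 in R 4.3.3, and numpy 2.4.6 and pandas 2.3.3 in Python 3.11.15.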

Additional observations from a re-analysis of the deposited data

How the results depend on the processing

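RRAS stayed past the size rule under every alternative of the rule that was run, with a log2 difference from 1.57 with a pseudocount of 72 to 2.10 without one, and 1.58 to 2.28 with 1 array left out. With a 1.5-fold limit 1 member probe set was lower, 228548_at of RAP1A. By limma, which compares the pools against hybridisation error only, at adjusted p under 0.05, 4 member probe sets were higher (RRAS, RAP1A 202362_at, RAP2B 227897_at and RALB 202101_s_at) and 2 lower (RALA 224880_at and RAP1A 228548_at), and the same with the replicate block of the replica number. Of all 54613 probe sets, 3094 were past that limit as higher and 2462 as lower, and 3494 and 2765 with the replicate block. The members are 18 of these probe sets, and RRAS was chosen from this contrast. The member probe sets past that limit were all measured ones, whereas only 21933 of the 54613 were measured. The limma counts among measured probe sets alone were not taken, so no excess among the members can be read from them. Same-numbered arrays did not deviate together (correlation 0.004 over 21933 probe sets). With 2 arrays per pool this cannot settle what the replica number stands for, and the labels do not say. By the size rule, all probe sets higher and lower were 502 and 318, 695 and 213 under median scaling, 308 and 185 with a pseudocount of 72, 1110 and 1280 without the brightness limit, 257 and 180 with the 75th percentile, 1414 and 1076 with a 1.5-fold limit, and 562 to 665 and 375 to 514 with 1 array left out, the most lower ones without empty-vector replica 1 (514) and replica 2 (479). Median scaling moved the median of all measured probe sets by 0.12, to 0.14, and RAP1B turned to 0.01, RAP2B 213923_at to 0.11 and RALA 214435_x_at to 0.03; relative to that median they were -0.13, -0.04 and -0.11. Averaging measured probe sets gave RAP1A -0.25 and RAP2B -0.03, the opposite sign of their brightest probe sets. RAPGEF2 and TIAM1 were past the rule under all 12 alternatives of it, MINK1 and RASGRP4 under 8 and RGL4 under 9. List medians under median scaling were 0.25 for other RAS family genes, 0.20 for exchange factors, 0.32 for GTPase-activating proteins, 0.35 for effectors, 0.14 for lipid anchor enzymes and 0.20 for the MAPK list. Under quantile normalization they were 0.082 for other RAS family genes and 0.17 for effectors, and with all probe sets averaged 0.014 for these family genes, 0.11 for GTPase-activating proteins and 0.080 for effectors. The family median was 0.065 without the brightness limit and the effector median 0.075 with the 75th percentile. With 1 array left out the medians ran from 0.11 to 0.18 for family genes, -0.0011 to 0.20 for exchange factors, 0.15 to 0.24 for GTPase-activating proteins, 0.15 to 0.23 for effectors, 0.020 to 0.081 for lipid anchor enzymes and 0.050 to 0.12 for the MAPK list. The cause of these shifts was not tested.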

Other observations

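The measured genes that neighbour RRAS in the reference gene table, 3 on each side, were looked up after the RRAS value was seen. None of the 6 was past the size rule. PRR12, next to RRAS on one side, had signals of 182.1 and 228.1 on the knock-down arrays, against 176.4 and 228.8 on the empty-vector arrays, and a log2 difference of 0.02. SCAF1, a splicing-associated factor gene on the other side, had 0.25. NOSIP had 0.08, IRF3, an interferon regulatory factor, -0.16, and BCL2L12 -0.35. RCN3 had -0.69 with 98.5 and 177.1 on the knock-down arrays, against 198.8 and 256.2 on the empty-vector arrays, and its knock-down arrays differed from each other with an SD of 0.53 on the log2 scale.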
